A study of Homo sapiens with 9 samples.

Results

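The G1 cyclins and their kinases are described here as 8 genes chosen by name: the D-type cyclins CCND1, CCND2 and CCND3, the E-type cyclins CCNE1 and CCNE2, and the cyclin-dependent kinases CDK4, CDK6 and CDK2. Each of the 8 symbols matched 1 of the 64253 gene identifiers in the deposited tables, and all 8 passed the filter on low counts, which 16561 genes passed. RNA was sequenced from IMR90, a fibroblast line from human fetal lung with a limited life span, in 3 groups of 3 libraries named a, b and c. All cells were at population doubling 30 in 2% oxygen, received 2 rounds of pLKO.1 lentivirus 24 hours apart, and were selected for 7 days in 3 ug/mL puromycin. The control group carried vector alone (named empty in the sample labels and GFP in the protocol). Cells of the shRRM2 group had a hairpin against RRM2, a subunit of the enzyme that makes deoxyribonucleotides, and the labels call it senescent. The shRRM2/shp16 group carried that hairpin and one against p16, which the labels call senescence-bypass. The p16 hairpin was not given by itself in any group, and each target was addressed in 1 cell line with 1 hairpin.

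D-type cyclins are made in response to growth signals and activate CDK4 and CDK6, which phosphorylate the retinoblastoma protein RB and so release E2F transcription factors. E-type cyclins, themselves E2F targets, then activate CDK2 to start S phase. The p16 protein binds CDK4 and CDK6 and blocks their activity, while p21 acts on cyclin-CDK complexes more widely. In senescent fibroblasts this chain is known to be held before S phase even where cyclin D1 and cyclin E are abundant, since much of the control lies in protein complexes that RNA levels do not show.

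The coding sequences of the D-type cyclins and of the kinases show what the members share and how far they differ. The 3 D-type cyclins begin with an LxCxE motif, a contact with RB, whose codons are in capitals below. The start of each coding sequence lies in exon 1, at chr11:69641314-69641370 (plus strand) for CCND1, chr12:4274041-4274091 (plus) for CCND2 and chr6:41941599-41941649 (minus) for CCND3 in GENCODE release 29 on GRCh38.
CCND1: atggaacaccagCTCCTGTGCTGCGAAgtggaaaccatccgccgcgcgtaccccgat
CCND2: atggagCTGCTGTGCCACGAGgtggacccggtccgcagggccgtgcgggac
CCND3: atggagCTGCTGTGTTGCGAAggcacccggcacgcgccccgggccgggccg
In the kinases, the codons in capitals encode the helix that docks onto the cyclin, which is named after its residues in CDK2. The stretches lie at chr12:55967111-55967923 (plus strand, across exons 1 and 2) for CDK2, chr12:57751520-57751600 (minus, exon 2) for CDK4 and chr7:92833111-92833191 (minus, exon 2) for CDK6.
CDK2: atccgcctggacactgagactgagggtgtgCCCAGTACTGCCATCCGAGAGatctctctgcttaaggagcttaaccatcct
CDK4: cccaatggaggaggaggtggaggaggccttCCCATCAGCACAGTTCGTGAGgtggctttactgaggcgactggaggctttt
CDK6: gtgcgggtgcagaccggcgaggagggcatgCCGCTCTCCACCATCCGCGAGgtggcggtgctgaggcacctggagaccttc
Over aligned coding positions CCND1 was 70.2% identical to CCND2 and 68.1% to CCND3, CCNE1 was 63.3% identical to CCNE2, and CDK4 was 68.5% identical to CDK6. The longest run of identical bases between any annotated transcripts of these pairs, noncoding parts included, was 23, between CCND1 and CCND2.

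The libraries held 15770895 to 24873291 gene-assigned counts, and the labels do not say whether a, b and c were separate cultures, so p-values measure the spread between these libraries only. The targeted gene RRM2 was at 481 to 491.2 CPM (counts scaled to library size) in control, and both hairpin groups were below that. It was at 59.98 to 63.24 CPM in shRRM2, the lowest, and 174.8 to 180.6 CPM in shRRM2/shp16, 2.851-fold the shRRM2 level. The hairpin groups thus differed in RRM2 RNA as well as in the p16 hairpin. Their parts in any difference between these groups cannot be told apart. CDKN2A, the p16 gene, was at 5.95 to 6.149, 5.968 to 6.792 and 3.934 to 4.569 CPM in the same order. These counts are for the whole gene and do not single out the p16 transcript. All 10 fibroblast markers had counts in all 9 libraries. They summed to 27890 to 28790 CPM in control, 27280 to 28100 CPM in shRRM2 and 22890 to 23520 CPM in shRRM2/shp16. Against control, VIM had a log2 fold change of -1.32, THY1 -1.07 and COL3A1 1.08 in shRRM2/shp16, and the part of these shifts in the results below was not tested. Of other cell types, 5 epithelial markers summed to at most 2.15 CPM (KRT5 and SFTPC at 0) and 5 leukocyte markers to at most 5.624 CPM (CD3E at 0). Of 4 endothelial markers, CDH5 had at most 1 read, and nearly all of the sum came from TEK, at a mean of 65.17, 67.42 and 115.2 CPM in control, shRRM2 and shRRM2/shp16. The share of unique reads assigned to no gene also moved with the groups, at 17.65% to 18.92% in control, 27.7% to 28.83% in shRRM2 and 23.48% to 24.35% in shRRM2/shp16, and the part of this difference in the results below was not tested. In bulk RNA, fewer cells with a transcript and less of it per cell cannot be told apart.

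Levels of different genes are given per gene length, as RPKM (reads scaled for gene length and for library size). CCND1 was the most abundant member in every group, and the E-type cyclins were the least abundant. In control the order of the means was CCND1 (295.9 RPKM), CDK2 (62.06), CDK4 (42.18), CDK6 (22.69), CCND3 (15.14), CCND2 (6.2), CCNE1 (3.085) and CCNE2 (2.625). In shRRM2 CDK6 (37.93 RPKM) stood above CDK4 (24.59 RPKM), and the ranges of CCND3 and CCND2 overlapped. In shRRM2/shp16 the order was again that of control, and no other neighbours in the order overlapped in any group. The authors' deposited FPKM of the hairpin groups, also scaled for gene length, gave other orders. In shRRM2 it put CCND3 (90.03) above CDK4 (88.07), CDK6 (71.73) and CCND2 (17.86). It put CCNE2 above CCNE1 in shRRM2 (13.24 against 8.194) and in shRRM2/shp16 (4.57 against 3.312).

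**Figure D1:**
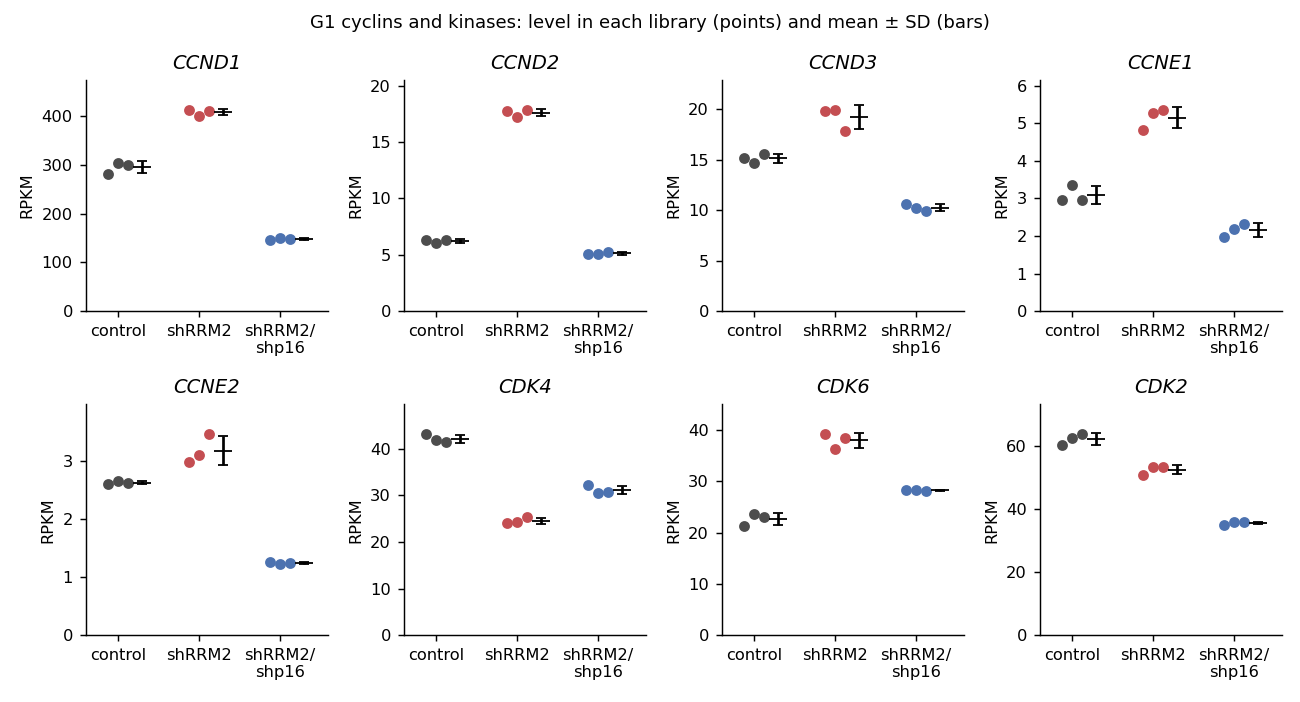
Level of each gene in RPKM (vertical axes from 0, each with its own scale) in the 9 libraries, with 1 point per library and a bar for mean ± SD of 3 libraries per group. The 5 cyclins are highest in shRRM2 and lowest in shRRM2/shp16, CDK4 is lowest and CDK6 highest in shRRM2, and CDK2 is lowest in shRRM2/shp16.

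All 5 G1 cyclins rose in shRRM2 against control, though the rise of CCNE2 passed the threshold by edgeR and not by DESeq2. They fell in shRRM2/shp16 against shRRM2, to levels below control. By edgeR's quasi-likelihood test with Benjamini-Hochberg adjustment over all 16561 genes, 6 of the 8 members were higher and 2 lower in shRRM2 than in control at an adjusted p under 0.05, where 60.9% of all tested genes passed, 29.0% higher and 31.8% lower. From shRRM2 to shRRM2/shp16, 1 member was higher and 7 lower, where 61.1% of all genes passed, 31.9% higher and 29.1% lower. From control to shRRM2/shp16, 1 was higher and 7 lower, where 62.4% of all genes passed, 30.0% higher and 32.4% lower. The median log2 fold change of the members was 0.40, -1.08 and -0.54 in these comparisons. The median of all tested genes lay between 0.00235 and 0.0147, and the scaling between libraries holds it near 0. The median absolute log2 fold change of all tested genes was 0.32, 0.32 and 0.343. The 3 comparisons share libraries and are not independent of each other.

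CCND1, which encodes cyclin D1 (ENSG00000110092; chromosome 11, 69641087 to 69654474, plus strand), had 282.7, 304.8 and 300.1 RPKM in control a, b and c. It had 413.5, 401.4 and 411.4 RPKM in shRRM2, and 145.5, 149.4 and 148.5 RPKM in shRRM2/shp16. The 3 groups did not overlap, which was so for 63.6% of all genes between control and shRRM2, 64.7% between the hairpin groups and 66.2% between control and shRRM2/shp16. Its log2 fold change was 0.47 ± 0.03 (SE) in shRRM2 against control (edgeR adjusted p 6.2e-20) and -1.47 ± 0.03 in shRRM2/shp16 relative to shRRM2 (adjusted p 3.6e-38). Against control the doubly targeted cells had -1.001 ± 0.03 (adjusted p 4.4e-32), or 49.96% of the control level.

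CCND2, the gene of cyclin D2 (ENSG00000118971; chromosome 12, 4273772 to 4305350, plus strand), had the largest change of any member in both comparisons with shRRM2. It was at 6.282, 5.998 and 6.318 RPKM in control, 17.78, 17.22 and 17.85 RPKM in shRRM2, and 5.026, 5.093 and 5.28 RPKM in shRRM2/shp16. The shRRM2 libraries stood far above the other 6, and the shRRM2/shp16 libraries were a little below control without overlap. The log2 fold change was 1.51 ± 0.04 in shRRM2 against control (edgeR adjusted p 9.6e-31), a 2.839-fold rise. It was -1.78 ± 0.04 in shRRM2/shp16 against shRRM2 (adjusted p 2.9e-33) and -0.27 ± 0.05 against control (adjusted p 4.1e-06).

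CCND3, for cyclin D3 (ENSG00000112576; chromosome 6, 41934933 to 42050357, minus strand), was at 15.14, 14.69 and 15.59 RPKM in control, 19.87, 19.93 and 17.82 RPKM in shRRM2, and 10.57, 10.23 and 9.912 RPKM in shRRM2/shp16. The groups did not overlap, and shRRM2 replicate c was the lowest of its group. CCND3 rose by 0.34 ± 0.04 on the log2 scale in shRRM2 (edgeR adjusted p 1.8e-09), and had -0.91 ± 0.04 in shRRM2/shp16 against shRRM2 and -0.56 ± 0.04 against control (adjusted p 4.0e-22 and 5.2e-15).

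Added together per length, the 3 D-type cyclins came to 317.2 ± 11.4 RPKM in control, 445.6 ± 6.4 in shRRM2 and 163.2 ± 1.82 in shRRM2/shp16 (mean ± SD, n = 3). The sum was 1.405-fold higher in shRRM2 than in control, and in shRRM2/shp16 it was 0.3662 of the shRRM2 level and 0.5143 of the control level. No groups overlapped, and each exact two-sided permutation test gave p = 0.10, the smallest that 3 against 3 libraries allow. CCND1 made up 93.27% ± 0.35 of the sum in control, 91.74% ± 0.26 in shRRM2 and 90.58% ± 0.22 in shRRM2/shp16 (SD, n = 3). The makeup of the rest differed, with CCND2 at 1.957%, 3.953% and 3.146% and CCND3 at 4.777%, 4.312% and 6.276%. These sums and shares rest on the gene lengths used. In the authors' deposited FPKM, CCND1, CCND2 and CCND3 had 724.9, 17.86 and 90.03 in shRRM2. In shRRM2/shp16 they had 251.0, 5.401 and 52.66. CCND3 thus stood further above CCND2 in FPKM than in RPKM, and the source of this difference was not tested.

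Ratios within a library, which do not depend on how libraries are scaled, showed unequal changes among the D-type cyclins. The ratio of CCND2 to CCND1 was 0.02098 ± 0.0013 in control, 0.04309 ± 0.00026 in shRRM2 and 0.03473 ± 0.00075 in shRRM2/shp16 (SD, n = 3), and no groups overlapped. Against control it was 2.056-fold higher in shRRM2 and 1.657-fold higher in shRRM2/shp16 (exact permutation p = 0.10 each, 0.12 with Benjamini-Hochberg adjustment over 12 ratio comparisons). The ratio of CCND3 to CCND1 was 0.05123, 0.04701 and 0.06929 in the 3 groups. It was higher in shRRM2/shp16 than in either other group without overlap (exact permutation p = 0.10, adjusted 0.12), while control and shRRM2 overlapped (exact permutation p = 0.20, adjusted 0.218). An adjusted p under 0.05 was out of reach for any of these ratios.

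**Figure D2:**
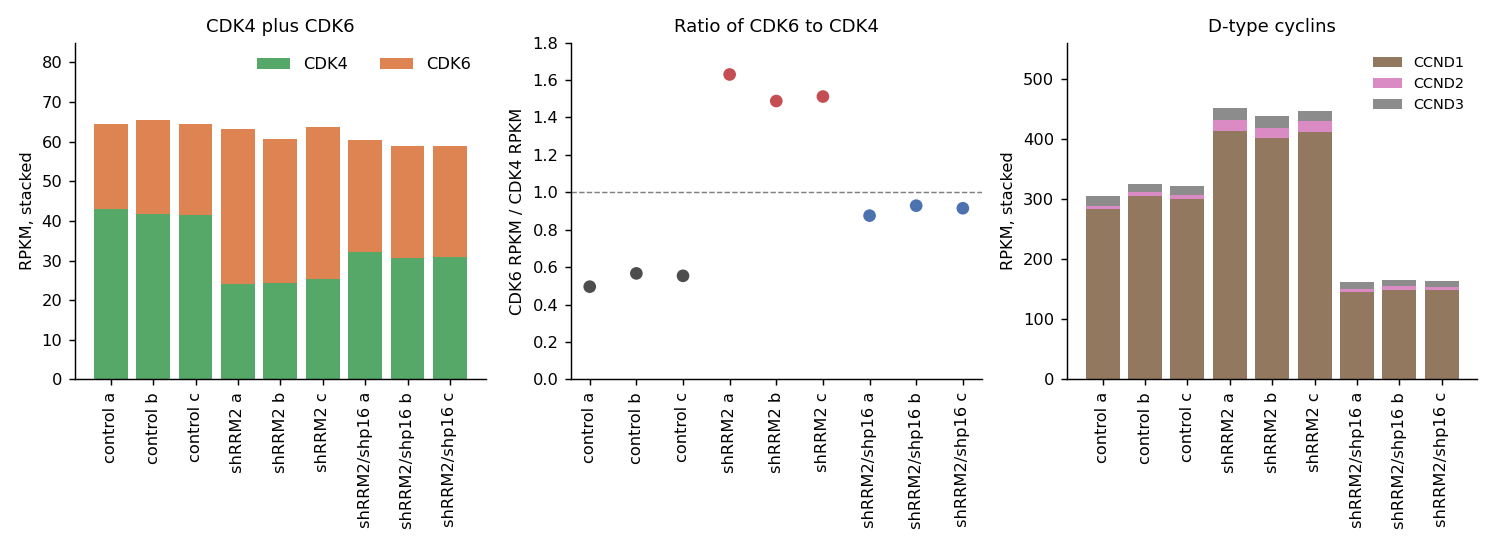
Stacked RPKM of CDK4 and CDK6 (left) and of the 3 D-type cyclins (right), and the ratio of CDK6 to CDK4 (middle, dashed line at 1), for each of the 9 libraries. CDK4 plus CDK6 stays between 58.89 and 65.56 RPKM while their ratio runs from 0.4954 to 1.63, and CCND1 fills most of each D-type bar. The spread of the CDK4 plus CDK6 sum and the place of the dashed line rest on the gene lengths used.

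The E-type cyclins were counted on few reads, 95 to 238 per library for CCNE1 and 102 to 273 for CCNE2, so their values carry more counting error than the other members. CCNE1 (ENSG00000105173; chromosome 19, 29811898 to 29824308, plus strand) was at 2.958, 3.354 and 2.944 RPKM in control, 4.829, 5.271 and 5.356 RPKM in shRRM2, and 1.968, 2.187 and 2.319 RPKM in shRRM2/shp16, with no overlap. Its log2 fold change was 0.74 ± 0.10 in shRRM2 against control (edgeR adjusted p 8.6e-09). In shRRM2/shp16 it was -1.26 ± 0.10 against shRRM2 (adjusted p 3.1e-14) and -0.51 ± 0.11 against control (adjusted p 1.0e-04).

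CCNE2 (ENSG00000175305; chromosome 8, 94879770 to 94896678, minus strand) was at 2.602, 2.657 and 2.615 RPKM in control and 2.974, 3.096 and 3.458 RPKM in shRRM2. In shRRM2/shp16 it was at 1.261, 1.234 and 1.247 RPKM, the lowest values of any member. The rise in shRRM2 was the smallest among the cyclins, at 0.28 ± 0.09 on the log2 scale (edgeR adjusted p 0.00531), and DESeq2 gave 0.26 with an adjusted p of 0.0746, which does not pass (0.00214 to 0.0746 over the alternatives). The fall in shRRM2/shp16 was -1.35 ± 0.10 against shRRM2 and -1.07 ± 0.10 against control (adjusted p 9.6e-16 and 1.4e-12). The ratio of CCNE2 to CCNE1 was 0.8534 ± 0.053 in control, 0.6163 ± 0.029 in shRRM2 and 0.5811 ± 0.054 in shRRM2/shp16 (SD, n = 3). Together the E-type cyclins came to 5.71 ± 0.26 RPKM in control, 8.328 ± 0.51 in shRRM2 and 3.405 ± 0.17 in shRRM2/shp16, without overlap (exact permutation p = 0.10 each, n = 3). For the ratio, control was above both hairpin groups without overlap (exact permutation p = 0.10, adjusted 0.12), and the hairpin groups overlapped (exact permutation p = 0.40, adjusted 0.40). CCNE2 shares 1629 exon bases with INTS8 on the opposite strand, and the strand setting of the counting is not given in the sources used here. INTS8 had log2 fold changes of -0.30, 0.28 and -0.02 in the 3 comparisons, in the order given above, where CCNE2 had 0.28, -1.35 and -1.07.

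The kinases did not move together. CDK4 (ENSG00000135446; chromosome 12, 57747727 to 57756013, minus strand) was at 43.13, 41.85 and 41.54 RPKM in control, 24, 24.42 and 25.34 RPKM in shRRM2, and 32.23, 30.54 and 30.81 RPKM in shRRM2/shp16. The groups stood apart, with shRRM2/shp16 between the others. CDK4 fell by 0.78 ± 0.04 on the log2 scale in shRRM2 (edgeR adjusted p 8.3e-22), to 58.3% of control, and was the 1 member that rose in shRRM2/shp16 against shRRM2, by 0.34 ± 0.04 (adjusted p 3.3e-10). It stayed below control, at -0.44 ± 0.04 on the log2 scale (adjusted p 2.9e-14). CDK4 shares 1369 exon bases with TSPAN31 on the opposite strand, which had 238 to 406 counts per library against at least 1198 for CDK4, and TSPAN31 had log2 fold changes of 0.37, 0.13 and 0.50 in the 3 comparisons.

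CDK6 (ENSG00000105810; chromosome 7, 92604921 to 92836594, minus strand) went the other way. It was at 21.37, 23.7 and 22.99 RPKM in control, 39.13, 36.34 and 38.32 RPKM in shRRM2, and 28.21, 28.36 and 28.18 RPKM in shRRM2/shp16. All shRRM2 libraries were above all shRRM2/shp16 libraries, and these above control. The log2 fold change was 0.74 ± 0.03 in shRRM2 against control (edgeR adjusted p 7.3e-24) and -0.42 ± 0.03 in shRRM2/shp16 relative to shRRM2 (adjusted p 8.5e-16). CDK6 was the 1 member still above control in shRRM2/shp16, by 0.32 ± 0.03 (adjusted p 8.2e-12).

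Per length, CDK4 exceeded CDK6 in all 3 control libraries, with CDK6 to CDK4 ratios of 0.4954, 0.5664 and 0.5534. In shRRM2 the ratios were 1.63, 1.488 and 1.512, so on this measure CDK6 was the more abundant of the pair in each library. In shRRM2/shp16 they were 0.8753, 0.9285 and 0.9146, between the other groups. The ratio was 2.869-fold higher in shRRM2 than in control, and in shRRM2/shp16 it was 0.5874 of the shRRM2 ratio and 1.685-fold the control ratio (exact permutation p = 0.10 each, adjusted 0.12). The sum of both kinases varied far less, at 64.86 ± 0.60 RPKM in control, 62.52 ± 1.55 in shRRM2 and 59.44 ± 0.87 in shRRM2/shp16 (SD, n = 3). The sums of the 3 groups still did not overlap (exact permutation p = 0.10 each). In CPM, which leaves out gene length, CDK6 had means of 278.2, 465.0 and 346.3 in control, shRRM2 and shRRM2/shp16. CDK4 had 133.6, 77.89 and 98.82 CPM, so by CPM the rise of CDK6 in shRRM2 was larger than the fall of CDK4. The point at which CDK6 passes CDK4 rests on the gene lengths used, 12260 bases for CDK6 and 3168 for CDK4 over all annotated exons. The small spread of the sum rests on them too, while the fold changes of the ratio do not. In the authors' deposited FPKM, also scaled for gene length, CDK4 stood above CDK6 in both hairpin groups. CDK4 had 88.07 against 71.73 for CDK6 in shRRM2, and 106.6 against 55.07 in shRRM2/shp16. The source of this difference was not tested.

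CDK2 (ENSG00000123374; chromosome 12, 55966769 to 55972784, plus strand), the partner of E-type cyclins, was at 60.06, 62.52 and 63.6 RPKM in control, 50.65, 53.24 and 53.16 RPKM in shRRM2, and 35.06, 35.8 and 35.83 RPKM in shRRM2/shp16. All shRRM2 libraries were below control, and all shRRM2/shp16 libraries were below shRRM2. Its log2 fold change was -0.24 ± 0.03 in shRRM2 against control (edgeR adjusted p 8.0e-09), -0.56 ± 0.03 in shRRM2/shp16 against shRRM2 (adjusted p 4.9e-19) and -0.80 ± 0.03 against control (adjusted p 3.9e-25). The authors' deposited RPKM column of shRRM2 replicate c, which does not match its count file, corresponds to 58.76 RPKM for CDK2, inside the 57.62 to 61.39 of the control columns. In the same column CCND1 stood at 311 RPKM, above the 271.3 to 295.8 of the control columns.

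**Figure D3:**
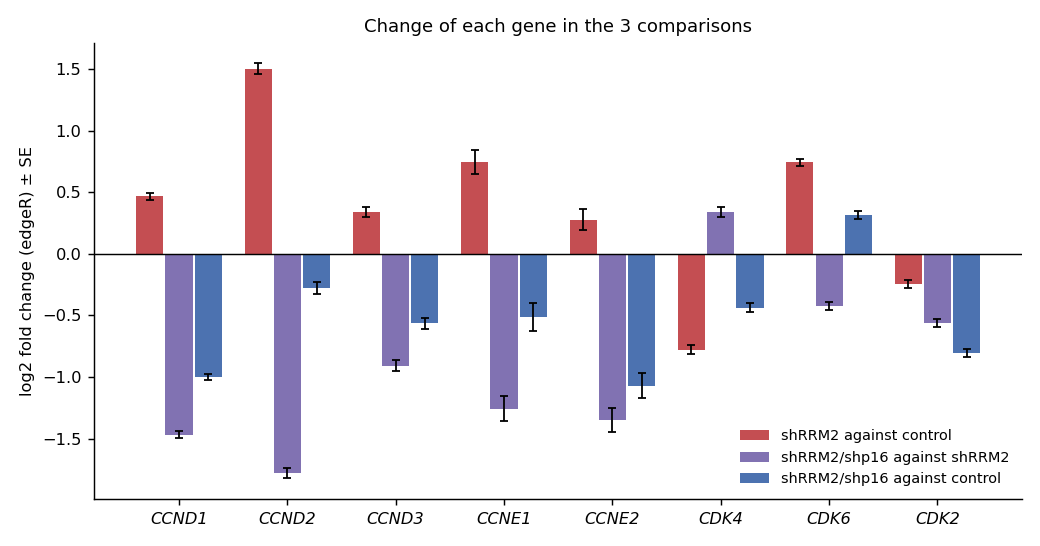
Log2 fold change of each gene with its standard error (vertical axis) in the 3 comparisons, from the edgeR fit to all 9 libraries. The cyclins are above 0 in shRRM2 against control and below 0 in the other comparisons, CDK4 and CDK6 have opposite signs in each, and CDK2 is below 0 in all 3.

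Other members overlap annotated genes over shorter stretches. CCND1 shares 497 exon bases with LTO1 on the opposite strand, which had at most 532 counts in any library against at least 13309 for CCND1. CDK2 shares 89 exon bases with PMEL on the opposite strand, which had log2 fold changes of 1.39, -1.27 and 0.13 in the 3 comparisons, and at most 564 counts against at least 2585 for CDK2. A longer stretch of CDK2, 565 exon bases, is shared with the antisense gene AC025162.1, which had 2 to 12 counts. CCND2 shares 989 bases on its own strand with AC008012.1, a gene model that has no entry in the deposited counts. How far such overlap touches the counts was not tested.

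The authors' deposited table holds a test of the 2 hairpin groups against each other. In the authors' deposited table all 5 cyclins and CDK2 had q-values under 0.05, with log2 fold changes of -1.53 for CCND1, -1.73 for CCND2, -0.77 for CCND3, -1.31 for CCNE1, -1.53 for CCNE2 and -0.55 for CDK2. For CDK4 the authors' deposited table lists 0.28 with a q-value of 0.0635, and for CDK6 -0.38 with a q-value of 0.115, so the 2 kinases called from the counts were not called there.

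CDK4, the member that fell and then rose, is shown with the sequence before its start because that stretch repeats 1 motif. RefSeq windows of 300 bases (250 before to 50 after a start, GRCh38.p14) were found for 4 members, CCND3, CCNE1, CDK4 and CDK6, with 7 windows in all. None held an E2F motif, searched on both strands as TTTCCCGC, TTTCGCGC, TTTGCCGC or TTTGGCGC, which 3.31% of 35116 windows hold. The E-box CACGTG, a sequence bound by MYC and related factors and chosen after the windows had been read, occurred 3 times before the CDK4 start, its first bases 216, 196 and 101 bases upstream. At least 1 E-box was in 7.26% of all windows, and among the members' other windows 1 of CDK6 held it, after the start. The 250 bases before the CDK4 start lie at chr12:57752311-57752560 on the minus strand, with the E-boxes in capitals.
CDK4: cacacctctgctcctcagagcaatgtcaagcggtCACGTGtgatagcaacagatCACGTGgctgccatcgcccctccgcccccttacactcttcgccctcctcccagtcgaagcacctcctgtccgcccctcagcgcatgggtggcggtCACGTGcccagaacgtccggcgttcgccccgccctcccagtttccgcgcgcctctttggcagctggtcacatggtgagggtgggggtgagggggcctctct
A match is a description of letters, and binding was not measured.

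The genes whose profile over the 9 libraries was nearest to a member were found for the 4 members whose group means spanned at least 1 on the log2 scale, by the root mean square difference of centred log2 CPM. Nearest to CCND1 were PDLIM5 (0.034), CYR61 (0.040) and TBC1D4 (0.057). CYR61, a secreted matrix protein gene, went from 492.5 CPM in control to 687.7 in shRRM2 and 238.8 in shRRM2/shp16. Nearest to CCND2 were LEPREL1 (0.077), A2M (0.081) and GPNMB (0.120), with A2M, which encodes a protease inhibitor, at 21.58, 65.94 and 19.67 CPM. Nearest to CCNE1 were HMGA2 (0.081), SGK3 (0.082) and HECW2 (0.089), with the chromatin protein gene HMGA2 at 322.3, 535.3 and 236.3 CPM. Nearest to CCNE2 were NES (0.046), CNN3 (0.059) and MIR4435-1HG (0.068), with NES, which encodes the filament protein nestin, at 297.6, 347.3 and 142.1 CPM. The distances are on the log2 scale over 9 libraries of 3 groups and describe likeness only.

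The cyclins and kinase that act after G1 were lower in both hairpin groups than in control. Of 8 genes listed for S and M phase, namely the A- and B-type cyclins, CCNF, CDK1 and the phosphatases CDC25B and CDC25C, 7 were tested and all 7 fell in shRRM2 against control (median log2 fold change -1.73). All 7 rose in shRRM2/shp16 against shRRM2, with a median of 0.58, and all 7 stayed below control (median -1.27). Over all tested genes, 31.8% were lower, 31.9% higher and 32.4% lower in these comparisons. CCNB1 (cyclin B1) had log2 fold changes of -1.98, 0.70 and -1.29 in the 3 comparisons, and CDC25B had -1.35, 0.58 and -0.77. The median of the 8 members was 0.40, -1.08 and -0.54, so the medians of these lists had opposite signs in the 2 comparisons that involve shRRM2 and the same sign in shRRM2/shp16 against control. Single members did not all follow their median: CDK4 had the signs of the S and M phase genes in each comparison, and CDK2 also fell in shRRM2. CDK6 was above control in shRRM2/shp16, with a log2 fold change of 0.32.

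The inhibitors that act on the members were split. Of 7 listed, 6 were tested, and 2 were higher and 3 lower in shRRM2 than in control. CDKN1A (p21) rose by a log2 fold change of 1.03 and CDKN2B (p15) by 0.53. CDKN2C (p18) fell by 2.01 on the log2 scale, CDKN2D (p19) by 1.30 and CDKN1B (p27) by 0.82, and CDKN2A had 0.11 with an edgeR adjusted p of 0.431. Between the hairpin groups 4 were higher and 2 lower in shRRM2/shp16: CDKN1B, CDKN2C, CDKN2D and CDKN2B had 0.75, 0.65, 0.46 and 0.38, and CDKN2A and CDKN1A had -0.60 and -0.50. Against control, CDKN1B had -0.07 (adjusted p 0.261), with 2 of the 6 higher and 3 lower. Of all tested genes, 29.0%, 31.9% and 30.0% were higher and 31.8%, 29.1% and 32.4% lower in the 3 comparisons.

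Downstream of the kinases, 13 genes of the RB, E2F and DP families were tested. In shRRM2 against control 8 were lower and 2 higher (median -0.27). E2F8 (-1.23) and E2F2 (-0.99) fell most, and the 2 that rose were E2F3 (0.36) and RBL2 (0.12). The count of 2 became 1 with DESeq2, with no low-count filter, without control replicate c and without shRRM2 replicate a. Relative to shRRM2, 5 were higher and 5 lower in shRRM2/shp16: E2F7, a repressor of the family, had -1.45 and E2F1 -0.70, while E2F5 had 0.995 and TFDP2 0.39. The identifier used for TFDP2 was 1 of 2 with that symbol, that with the most counts. Relative to control, 7 were lower and 4 higher in shRRM2/shp16, with E2F7 at -1.93 and E2F8 at -1.80, and E2F5 at 0.83 and TFDP2 at 0.46.

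Among 15 tested genes that regulate the kinases' activation or turn over cyclins, 4 were higher and 8 lower in shRRM2 against control (median -0.11). The list holds WEE1, which inhibits CDK1 and CDK2 by phosphorylation. Over all tested genes, 29.0%, 31.9% and 30.0% were higher and 31.8%, 29.1% and 32.4% lower in the 3 comparisons. CKS1B, a small subunit of CDK complexes, had -1.46 and FBXO4 -1.01, while FBXW7, the ubiquitin ligase subunit that targets cyclin E, had 0.42 and CCNH 0.30. The count of 8 became 5 without control replicate c, without shRRM2 replicate b, and with at least 10 counts asked for in every library, and the count of 4 became 2 without a low-count filter. From shRRM2 to shRRM2/shp16, 3 were higher and 6 lower, with CKS1B at 0.64 and FBXO4 at 0.53, and CDC37, a chaperone of CDK4, at -0.63 and SKP2 at -0.59. From control to shRRM2/shp16, 3 were higher and 8 lower, with CCNH at 0.36 and FBXW7 at 0.28, and CDC25A, the phosphatase that activates CDK2, at -0.995 and the inhibitory kinase WEE1 at -0.93. The identifier used for CDK7, 1 of 2 with that symbol, had at most 2 reads in any library and was not tested.

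Relatives of the members outside the G1 machinery moved in both directions. Of 13 cyclins and kinases of transcription, 4 were higher and 5 lower in shRRM2 against control (median -0.12), with CCNT2 (0.35) and CDK11B (-0.39) at the ends. The count of 5 became 8 without a low-count filter. Relative to shRRM2, 7 were higher and 1 lower in shRRM2/shp16 (median 0.25), with CDK19 at 0.64 and CCNK at -0.56. Relative to control, 7 were higher and 4 lower (2 lower without shRRM2/shp16 replicate a), with CCNL1 at 0.52 and CCNK at -0.31. Of 15 other family members tested, 2 were higher and 10 lower in shRRM2 than in control. Relative to shRRM2 6 were higher and 4 lower in shRRM2/shp16, and relative to control 5 were higher and 5 lower there. CCNG2, a cyclin linked to exit from the cycle, had log2 fold changes of -0.25, 1.37 and 1.12 in these comparisons, and CDK15 had -0.63, -1.14 and -1.77.

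**Figure D4:**
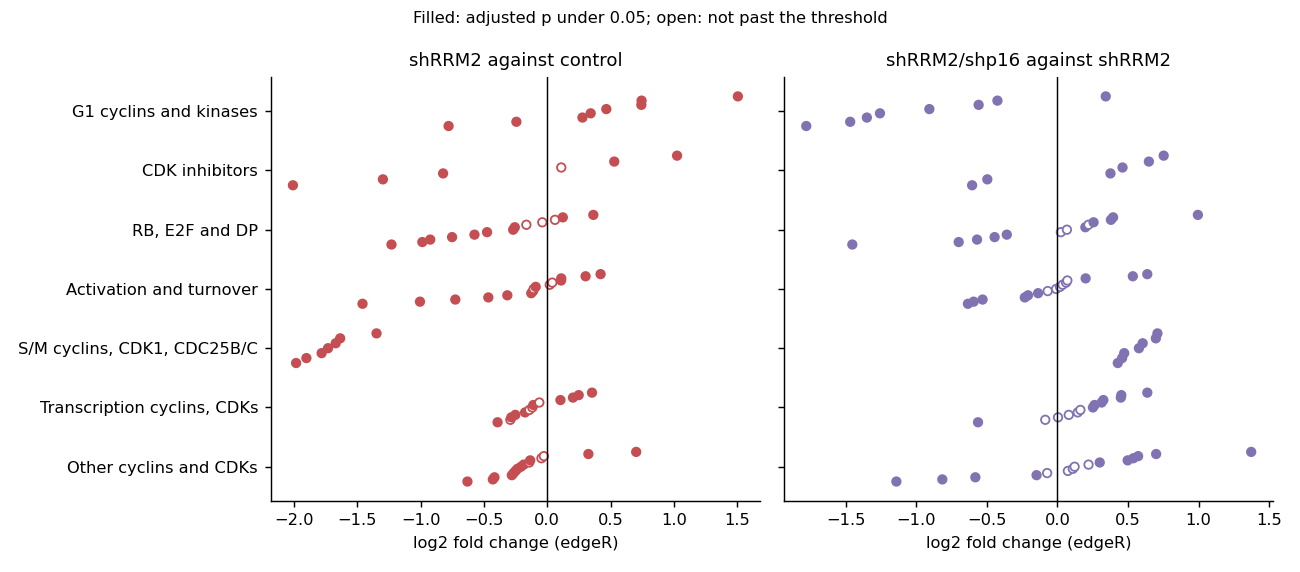
Log2 fold change (horizontal axes) of every tested gene of the 8 G1 cyclins and kinases and of 6 related lists, in shRRM2 against control (left) and shRRM2/shp16 against shRRM2 (right), with filled points past an adjusted p of 0.05. Most G1 cyclins and kinases lie right of 0 on the left and left of 0 on the right, and the S and M phase genes lie left of 0 and then right of 0, as does CDK4.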

How the data were processed

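RNA from 9 IMR90 libraries was analysed, 3 in each of 3 groups taken from the sample labels. Libraries were made from total RNA after removal of ribosomal RNA with a stranded kit, per the labels' protocols. The authors deposited 1 file of raw counts by Ensembl gene per library, in the layout of HTSeq. TopHat2 2.0.9, Cufflinks 2.0.2, Cuffdiff and GRCh38 are named in the submitters' processing notes, without roles. Which annotation release and strand setting were used is not given in the sources used here. The authors also deposited a table of log2 RPKM per library, stored as log2 of a value per base plus 1 (calculated back from the counts). It holds group FPKM values, a log2 fold change, p-values and q-values for the 2 hairpin groups, per the file headers. Of the log2 RPKM columns, 8 of 9 equalled the counts over a fixed gene length (within 0.001 of the value, for genes with 100 or more counts). The column of shRRM2 replicate c did not. Every column of single libraries matched a sample.

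Rows that name no gene were left out of library sizes. Among unique reads 3.744% to 6.019% were ambiguous between genes, and alignments that were not unique were 40.35% to 44.87% of all tallied entries. Counts were filtered with filterByExpr, scaled with TMM factors and fitted with edgeR 4.0.16 (glmQLFit, glmQLFTest) in R 4.3.3, with all 9 libraries in 1 fit and 6 residual degrees of freedom. Tests were two-sided, with Benjamini-Hochberg adjustment over 16561 genes and a threshold of 0.05. The standard error is the log2 fold change over the root of F. RPKM was computed from the counts with the length implied by the matching columns, equal for all 8 members to the exon length in GENCODE release 29. Sums and ratios were tested with exact permutation tests in scipy 1.17.1. The edgeR step was tested on simulated data in which few genes changed, and only in 1 group. Most genes were called in the real data, so that test does not check scaling or calls in such a case.

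Members and gene lists were chosen with earlier results of these data known. Named genes were all members, the inhibitors, the 3 nearest profiles, and up to 2 called genes per direction at the ends of each list. Alternatives were RLE scaling, DESeq2 1.42.0, omitting the low-count filter, requiring 10 counts in every library, only the 6 libraries compared, a replicate block and leaving out each library. Protein sequences were not used here.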

Additional observations from a re-analysis of the deposited data

How the results depend on the processing

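Of the member fold changes recomputed under alternatives, 359 kept their direction and side of the threshold, and 1 did not: CCNE2 in shRRM2 against control with DESeq2 (log2 fold change 0.26, adjusted p 0.0746). The numbers of members called higher and lower were within 1.5 times the reported ones in all 90 recomputations. Apart from leaving out single libraries, the settings gave 8454 to 10265 genes called in shRRM2 against control. They gave 8543 to 10279 in shRRM2/shp16 against shRRM2 and 8819 to 10422 in shRRM2/shp16 against control. Leaving out 1 library gave 9459 to 10125, 9520 to 10366 and 9744 to 10545. With the replicate letter as a replicate block, 10101, 10134 and 10388 genes were called, and no member call changed. Deviations of same-letter libraries from their group means correlated between -0.0198 and 0.0486 across genes, so the letters were not taken to pair samples. Of the list counts, 530 stayed within 1.5 times the reported ones and 10 did not. Summed levels and ratios stayed within 1 SD in all 306 recomputations. Leaving out 1 of 3 libraries cannot move a group mean by 1 SD, so those recomputations could not have failed. Only RLE scaling of the summed levels could have moved them, so the count says little about stability. For each member the gene length from GENCODE equalled the length used, so it could not change a level. CCNE1 and CCNE2, with 95 to 273 reads per library, are the members most limited by depth, and intervals of ± SE cover the spread between libraries only.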
